A study of Mus musculus with 36 samples.

Results

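The genes described here are 34 genes of the endoplasmic reticulum stress response, measured in mouse liver. They were taken as a list of gene symbols, with current and older symbols matched, and a probe was kept if it was detected, at a p-value below 0.05, on 6 or more of the 36 arrays. The detection rule used no difference between diets, but the list of genes was chosen with earlier results of these data known. Of the 34 genes 33 had at least 1 named probe and 29 passed the detection rule with 42 of their 58 probes, among 10281 genes that passed in the whole series. The 5 others were Canx (detected on 0 arrays), Atf6 (0), Derl1 (at most 2), Atf3 (3) and Dnajb11, which was not analysed here. The dimmest genes that passed were Eif2ak3 with 14 arrays and Derl3 with 18, so no gene lay close above the threshold of 6. By role, 13 of 15 chaperones and folding enzymes, 7 of 8 genes of degradation and translocation, 6 of 7 genes of the ATF4 branch and 3 of 4 stress sensors and transducers were tested.

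The livers came from male mice aged 20 weeks (C57BL/6J by the sample labels, C57BL/6JBomTac by the series design) that had eaten their diet for 13 weeks, with 6 mice per diet. The low-fat diet held 10% of its energy as fat and the high-fat diet 45%. The remaining groups ate the 45% fat diet to which freeze-dried lingonberry, blackcurrant, bilberry or açai had been added at 20% of the weight. RNA of 1 mouse was hybridised per array of the Illumina MouseWG-6 v2.0 beadchip, and each of 6 chips carried all 6 diets in fixed positions, so that a diet and its array position cannot be told apart. Livers are named by diet and chip number (low-fat 1 to low-fat 6).

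The endoplasmic reticulum folds secreted and membrane proteins, of which the hepatocyte makes large amounts. When unfolded protein accumulates there, the sensors IRE1 (Ern1), PERK (Eif2ak3) and ATF6 start the unfolded protein response: IRE1 splices the messenger RNA of the transcription factor XBP1, ATF6 is cut to release a transcription factor, and PERK slows translation while raising that of the transcription factor ATF4. XBP1 and ATF6 drive chaperones and the degradation machinery, and ATF4 drives genes of amino acid supply and redox balance together with Ddit3 (CHOP). The arrays measure total transcript of a probe, so that neither the splicing of Xbp1 nor the translation of Atf4 was observed.

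Promoter sequences from RefSeq (GRCm38.p6) were searched for the elements through which these factors are known to act, in the 250 bases before the annotated start and on both strands. The endoplasmic reticulum stress element, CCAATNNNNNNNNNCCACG, was found in 37 of 32851 promoters (0.113%) and in 9 of the 30 members with a promoter entry (30%): Calr, Canx, Creld2, Derl3, Dnajc3, Hsp90b1, Hspa5, Pdia6 and Syvn1. Its variant ATTGGNCCACG occurred in 10 promoters (0.0304%), among them that of Herpud1. The ATF4 element TGATGNAA was found in 1134 promoters (3.45%) and in 4 members (13.3%), Asns, Atf3, Chac1 and Herpud1. A match says only that these letters lie in the window. The promoters below belong to the 4 genes with a match that were lower on lingonberry than on low fat (Creld2, Pdia6, Dnajc3 and Calr) and to Hspa5 and Syvn1, the member whose correlation with Hspa5 from liver to liver was the highest. Capitals mark the endoplasmic reticulum stress element, read on the gene's strand from 5′ to 3′, so that a match on the other strand appears as its reverse complement (Creld2 and Calr). The windows are chr15:88819396-88819645 on the plus strand for Creld2, chr12:17266339-17266588 on the plus strand for Pdia6, chr14:118937682-118937931 on the plus strand for Dnajc3, chr8:84846932-84847181 on the minus strand for Calr, chr2:34771840-34772089 on the plus strand for Hspa5 and chr19:6046326-6046575 on the plus strand for Syvn1.
Creld2: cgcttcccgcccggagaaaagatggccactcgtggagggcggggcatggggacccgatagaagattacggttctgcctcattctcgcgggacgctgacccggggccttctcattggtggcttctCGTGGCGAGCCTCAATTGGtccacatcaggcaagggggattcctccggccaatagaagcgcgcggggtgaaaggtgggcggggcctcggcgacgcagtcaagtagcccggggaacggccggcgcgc
Pdia6: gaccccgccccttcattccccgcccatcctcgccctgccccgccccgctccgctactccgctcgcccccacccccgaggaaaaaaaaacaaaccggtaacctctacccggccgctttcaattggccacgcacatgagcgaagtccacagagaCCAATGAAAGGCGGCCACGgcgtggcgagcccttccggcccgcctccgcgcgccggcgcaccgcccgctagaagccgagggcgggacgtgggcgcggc
Dnajc3: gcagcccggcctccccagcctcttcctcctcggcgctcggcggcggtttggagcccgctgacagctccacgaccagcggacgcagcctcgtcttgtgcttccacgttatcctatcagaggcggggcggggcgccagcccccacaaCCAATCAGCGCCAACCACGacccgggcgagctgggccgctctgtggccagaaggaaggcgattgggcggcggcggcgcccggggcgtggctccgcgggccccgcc
Calr: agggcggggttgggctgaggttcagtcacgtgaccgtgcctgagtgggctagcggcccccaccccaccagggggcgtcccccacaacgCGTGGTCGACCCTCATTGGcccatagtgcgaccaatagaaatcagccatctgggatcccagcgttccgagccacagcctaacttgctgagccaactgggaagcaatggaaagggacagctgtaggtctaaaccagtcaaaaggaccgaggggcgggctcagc
Hspa5: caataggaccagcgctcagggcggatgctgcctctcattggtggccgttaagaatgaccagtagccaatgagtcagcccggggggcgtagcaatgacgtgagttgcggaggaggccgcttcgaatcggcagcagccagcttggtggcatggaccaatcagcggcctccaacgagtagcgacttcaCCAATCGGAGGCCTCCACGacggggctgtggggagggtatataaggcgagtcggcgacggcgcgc
Syvn1: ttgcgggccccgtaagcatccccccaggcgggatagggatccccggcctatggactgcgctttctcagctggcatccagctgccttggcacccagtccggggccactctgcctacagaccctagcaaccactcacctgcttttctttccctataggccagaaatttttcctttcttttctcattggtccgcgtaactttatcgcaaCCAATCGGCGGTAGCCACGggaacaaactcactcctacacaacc

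The element began 126 bases before the start in Creld2, 98 in Pdia6, 105 in Dnajc3, 162 in Calr, 65 in Hspa5 and 44 in Syvn1. Sdf2l1, which was also called lower on lingonberry than on low fat, held no match of these 3 motifs in its window.

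Median raw intensity per array ranged from 81.2 to 103. Precision is limited by how many arrays there are per diet. Values are normalized log2 intensities of the brightest probe of a gene unless a dimmer probe is named, a difference of 1 being a factor of 2, and levels of different genes are not compared. All 6 hepatocyte markers (Alb, Apoa1, Ttr, Tat, Cps1 and Cyp2e1) were detected in every liver. Their mean had its highest median on low fat, at 11.55 against 11.27 to 11.34 on the other diets, the same direction as for most chaperones, and the part of this in the results was not tested. Transcripts of pancreatic acinar cells stood out in 6 livers, whose mean over 21 markers exceeded 6 against 4.92 to 5.47 in the other 30: low-fat 6, lingonberry 2, blackcurrant 3, bilberry 2 and açai 4 and 6, with none on high fat. The summed level of these markers, in linear intensity units, ran from 7160 to 11800 on low fat, 7140 to 8170 on high fat, 5890 to 26000 on lingonberry, 6490 to 15200 on blackcurrant, 7510 to 15100 on bilberry and 6900 to 22100 on açai. Amy2a5 and Cela1 were detected in all 36 livers. The lower sums mostly follow Amy2a5, whose mean of 12.75 exceeded that of every other marker of the list (9.61 for Cela1, the next). Results of the members are therefore also given without these 6 livers where a call changes; the wider gene list was not fitted without them. Of the plasma cell markers, which belong to another cell type rich in chaperones, 4 of 7 had probes: Mzb1 was detected on 15 arrays, Jchain and Tnfrsf17 on 2 each and Pou2af1 on 0. Their mean was at most 4.77 in any liver, and their part in the results was not tested. In whole liver, fewer cells of a type and less RNA per cell cannot be told apart.

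Differences between diets were tested with limma over 17907 probes, and a probe was called when its p-value, adjusted by the Benjamini-Hochberg method over all of them, was below 0.05. The test of any difference among the 6 diets called 8.03% of all probes and 2 of the 29 genes, Pdia6 (adjusted p = 0.035) and Atf4 (adjusted p = 0.02176). At an unadjusted p below 0.05 the count was 11 of 29 genes (37.9%) against 21.1% of all probes: 6 of 13 chaperones, 3 of 6 genes of the ATF4 branch, 1 of 7 degradation genes and 1 of 3 sensors. Without the 6 livers with pancreatic transcripts the gene called was Hyou1 (adjusted p = 0.0272). The count of 2 became 1 without low-fat 1, 2 or 4 or lingonberry 1 or 2, 4 without lingonberry 6 or bilberry 2, and 5 without blackcurrant 6. The 15 pairs of diets share samples and are not independent of each other. Median differences over all probes lay between -0.015 and 0.006 in the 15 pairs.

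The chaperones and folding enzymes were arranged alike over the diets. The low-fat mean was the highest for 11 of 13 (all but Dnajb9 and P4hb) and the lingonberry mean was the lowest for 12 of 13 (all but Manf). Lingonberry minus low-fat gave the most calls: 5 of the 13 chaperones were lower and none was higher, while 3.28% of all probes were called in that pair. The called genes were Creld2, Sdf2l1, Pdia6, Dnajc3 and Calr. The difference was negative for all 13, with a median of -0.54 against 0.000 over all probes, and had an unadjusted p below 0.05 for 11, against 14.4% of all probes. The genes of the other branches added no call to this pair.

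Creld2, which encodes a secreted and luminal protein with disulfide isomerase activity, differed the most. Its level was 9.08 at the lowest, 9.60 at the median and 10.57 at the highest on low fat, and 7.44, 7.98 and 9.10 on lingonberry. The groups met only at their edges, the highest lingonberry liver lying just above the lowest low-fat liver. The means were 9.71 ± 0.50 (SD, n = 6) and 8.15 ± 0.60, and the difference was -1.56 ± 0.41 (SE), 2.95-fold lower, with an adjusted p of 0.02393. It was negative on 6 of 6 chips, from -2.11 to -0.55 within a chip. The dimmer probe gave -1.50 (adjusted p = 0.03589). The call was lost when low-fat 2 or 4 or lingonberry 1, 3 or 5 was left out (adjusted p 0.0503 to 0.0747).

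Sdf2l1 encodes a partner of the chaperone BiP in the lumen. Its values were 7.56, 7.81 and 8.43 on low fat and 6.25, 6.57 and 7.58 on lingonberry (lowest, median and highest of 6 livers). A single lingonberry liver, at 7.58, reached into the low-fat range. The means of 7.87 ± 0.32 and 6.76 ± 0.50 (SD, n = 6) differed by -1.11 ± 0.27, 2.16-fold, with an adjusted p of 0.01283, and the sign was the same on 6 of 6 chips. Without background correction it was -0.74 (0.021). No single array of the 36 decided this call, whose adjusted p stayed at or below 0.0419 when each was left out, but it was lost without chip 1 or chip 5 (up to 0.064).

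Pdia6, a protein disulfide isomerase that also attenuates IRE1, spanned 7.53 to 8.51 on low fat (median 8.13) and 7.20 to 7.71 on lingonberry (median 7.47). The lower low-fat livers lay within the lingonberry range. The difference of means was -0.58 ± 0.15 (8.04 ± 0.37 and 7.45 ± 0.21, SD, n = 6; adjusted p = 0.01457), negative on 5 of 6 chips, and the call was lost without low-fat 1 (0.0601). Its dimmer probe, at a mean of 5.17, was not called in this pair, with 5.22 ± 0.14 on low fat and 5.10 ± 0.18 on lingonberry. The test of any difference among the diets gave an adjusted p of 0.8821 on that probe.

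Dnajc3 encodes p58IPK, a co-chaperone of BiP and inhibitor of PERK. It ran from 9.06 to 9.87 on low fat (median 9.33) and from 8.63 to 9.08 on lingonberry (median 8.97). The groups overlapped only at their edges. The means differed by -0.48 ± 0.13 (adjusted p = 0.03059), with the same sign on 6 of 6 chips. Leaving out low-fat 1 or 4 or lingonberry 2 or 3 ended the call (0.0708 to 0.115), as did leaving out the 6 livers with pancreatic transcripts (-0.53, adjusted p = 0.0554).

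Calr encodes calreticulin, the calcium-binding lectin chaperone. Its values were 8.42, 9.02 and 9.17 on low fat and 8.19, 8.40 and 8.70 on lingonberry (lowest, median, highest), and 2 low-fat livers lay within the lingonberry range. The difference of -0.51 ± 0.14 had an adjusted p of 0.04019 and was negative on 5 of 6 chips. It was the least stable of the 5: the call was lost when any of low-fat 1 to 4 or of lingonberry 1, 2, 3, 5 or 6 was left out (0.0524 to 0.106). Without the livers with pancreatic transcripts Creld2, Sdf2l1, Pdia6 and Calr were still called (adjusted p 0.0159 to 0.0368), with differences of -1.56, -1.14, -0.65 and -0.57. Leaving out a whole chip, and so 1 mouse of each diet, ended the call in 3 of 6 fits for Pdia6 and in 5 of 6 for Creld2, Dnajc3 and Calr.

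**Figure D1:**
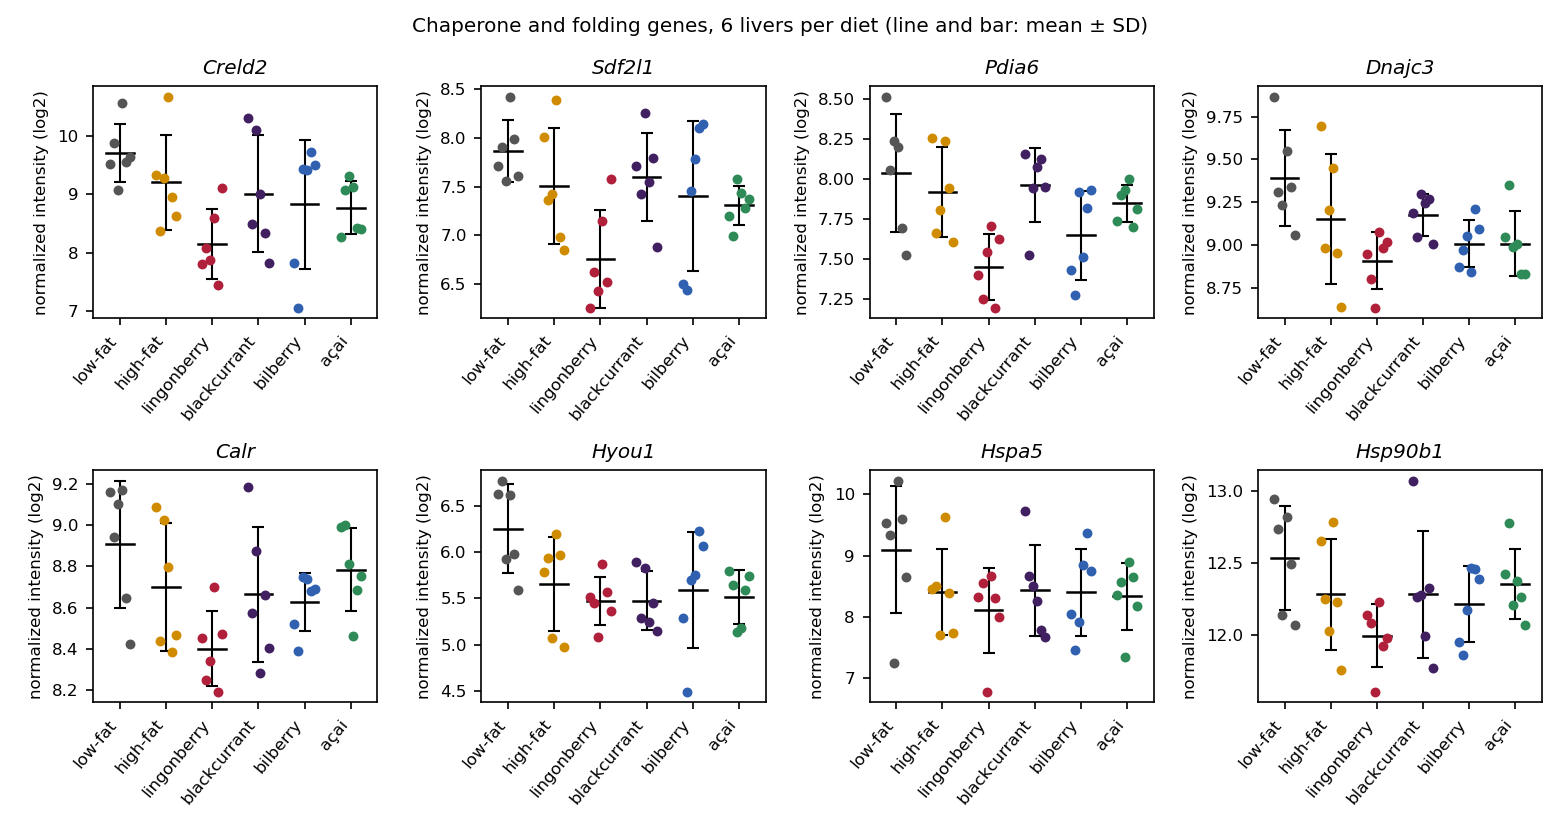
Normalized log2 intensity of 8 chaperone and folding genes (vertical axis, a scale of its own per panel) in the 6 livers of each diet (points), with the mean and SD of a diet as line and bar. The low-fat mean is the highest and the lingonberry mean the lowest in all 8 panels, and the groups of each called pair overlap.

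Hyou1, a large chaperone that exchanges nucleotides on BiP, was the 1 member called lower on açai than on low fat. In that pair 6.47% of all probes were called, and 22 of 29 members were lower in the mean. At an unadjusted p below 0.05 there were 9 of 29, against 19.3% of all probes. Levels of Hyou1 were 5.60, 6.30 and 6.77 on low fat and 5.14, 5.62 and 5.80 on açai (lowest, median, highest). Most low-fat livers lay above the highest açai liver. The difference was -0.74 ± 0.23 (6.25 ± 0.48 and 5.52 ± 0.29, SD, n = 6) with an adjusted p of 0.04898, negative on 5 of 6 chips. This call sat at the threshold: it was lost in 25 of 36 fits without a single array (up to 0.125), and kept only without low-fat 3 or 6, high-fat 3, 4 or 6, lingonberry 3, blackcurrant 1 or 3 or bilberry 2, 5 or 6. It was lost in 5 of 6 fits without a chip. Its size depended on the background correction, at -0.34 without one and -0.48 with an offset of 50 (adjusted p = 0.0296 and 0.0333). Hyou1 also lay below low fat on the other high-fat diets, by -0.78 on lingonberry (adjusted p = 0.05525), -0.78 on blackcurrant (0.06767), -0.67 on bilberry (0.1742) and -0.60 on high fat alone (0.1733). Without the 6 livers with pancreatic transcripts it was called in 4 of these 5 pairs: -0.91 on lingonberry (adjusted p = 0.0206), -0.98 on blackcurrant (0.0142), -0.84 on açai (0.0298) and -0.73 on high fat alone (0.0433). These calls are not independent, because all the pairs share the low-fat livers. Low-fat 6, left out here, had the lowest Hyou1 level of its diet (5.60). The share of all probes called without the 6 livers is not given here. With the pancreatic mean as a covariate the açai difference was -0.68 (0.0753). The part of pancreatic transcripts in these values was not tested further.

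Hspa5 encodes BiP, the main luminal Hsp70 chaperone and the usual marker of the response, and it spread widely within every diet. Its values were 7.25, 9.44 and 10.22 on low fat, 7.71, 8.43 and 9.62 on high fat and 6.78, 8.32 and 8.67 on lingonberry (lowest, median, highest). They were 7.67, 8.38 and 9.72 on blackcurrant, 7.46, 8.41 and 9.37 on bilberry and 7.35, 8.47 and 8.90 on açai. All 6 diets overlapped widely. Single livers covered 3.44 units, whereas the diet means covered 0.99. Lingonberry minus low-fat was -0.99 ± 0.40 (95% interval -1.79 to -0.19) with an adjusted p of 0.195, negative on 6 of 6 chips, so the difference did not pass over all probes. High-fat minus low-fat was -0.69 ± 0.40 (adjusted p = 0.4192). Hsp90b1 (GRP94), the luminal Hsp90, gave -0.54 ± 0.18 for lingonberry minus low-fat (12.00 and 12.54, adjusted p = 0.09665), also on 6 of 6 chips. The disulfide isomerases Pdia3, Pdia4 and P4hb and the BiP co-chaperone Dnajb9 differed by 0.24 to 0.52 between their extreme diet means, with adjusted p of at least 0.3456 for any difference among the diets.

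Each chip held all diets, and a fit with chip as a replicate block removed the spread between chips. The share of all probes called between diets in this fit is not given here, so its counts cannot be set against it. With this block 7 chaperones were called lower on lingonberry than on low fat, the 5 above with Hsp90b1 (adjusted p = 0.03415) and Hyou1 (0.0452). On açai against low fat the blocked fit called 4 members lower: Hyou1 (0.03878), Dnajc3 (0.045), Manf (0.04626), a secreted protein of the stressed reticulum, and Xbp1 (0.04744).

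High-fat feeding alone moved no member past the threshold with all livers kept: high-fat minus low-fat called 0 of 29 genes against 3.31% of all probes. At an unadjusted p below 0.05 the count was 2 of 29, Hyou1 and Asns, against 15.4% of all probes. The sign was negative for 12 of 13 chaperones, with a median of -0.25. Lingonberry minus high-fat called 0 of 29 brightest probes against 2.25% of all probes, and at an unadjusted p below 0.05 there were 8 of 29 against 14.1% of all probes. The chaperones were again on the lower side, with 13 of 13 negative and a median of -0.24, led by Creld2 at -1.06 ± 0.41 (adjusted p = 0.1993) and Sdf2l1 at -0.75 ± 0.27 (0.157). Pdia6 at -0.47 passed with chip as a replicate block (0.0444, against 0.08306). These 3 pairs share the high-fat or low-fat livers, so their values are set side by side and not counted as independent.

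Against high fat the chaperone medians of the other berries were close to 0. Blackcurrant minus high-fat had a chaperone median of 0.03, bilberry -0.07 and açai -0.07, and none of the 29 genes was called in these pairs, where 0.134%, 0.38% and 0.0447% of all probes were. At an unadjusted p below 0.05 there were 5, 4 and 2 of 29, against 8.7%, 7.8% and 6.1% of all probes. Against low fat the chaperone medians were -0.24 for blackcurrant, -0.32 for bilberry and -0.25 for açai. No member was called in blackcurrant minus low-fat or bilberry minus low-fat, where 2.31% and 1.61% of all probes were. The counts at an unadjusted p below 0.05 were 3 and 4 of 29, against 14.7% and 11.7% of all probes.

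The berry diets were also compared with each other. Lingonberry was below blackcurrant for the chaperones with a median of -0.29 and below bilberry with -0.22, but 0 of 29 genes were called in either pair (0.983% and 0.246% of all probes). At an unadjusted p below 0.05 there were 6 and 5 of 29, against 11.5% and 8.8% of all probes. With chip as a replicate block lingonberry minus blackcurrant called Pdia6 (-0.51, adjusted p = 0.04326) and Chac1 (-1.46, 0.04982). The 0.983% of all probes belongs to the fit without this block, and the share with it is not given here. Açai minus blackcurrant and açai minus bilberry called 0 of 29 (1.76% and 0.771% of all probes), and so did blackcurrant minus bilberry (0.212%). Their counts at an unadjusted p below 0.05 were 4, 1 and 2 of 29, against 12.9%, 10.2% and 9.3% of all probes. In açai minus lingonberry, where 3.35% of all probes were called, 1 member was, Atf4, and the chaperone median was 0.24.

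**Figure D2:**
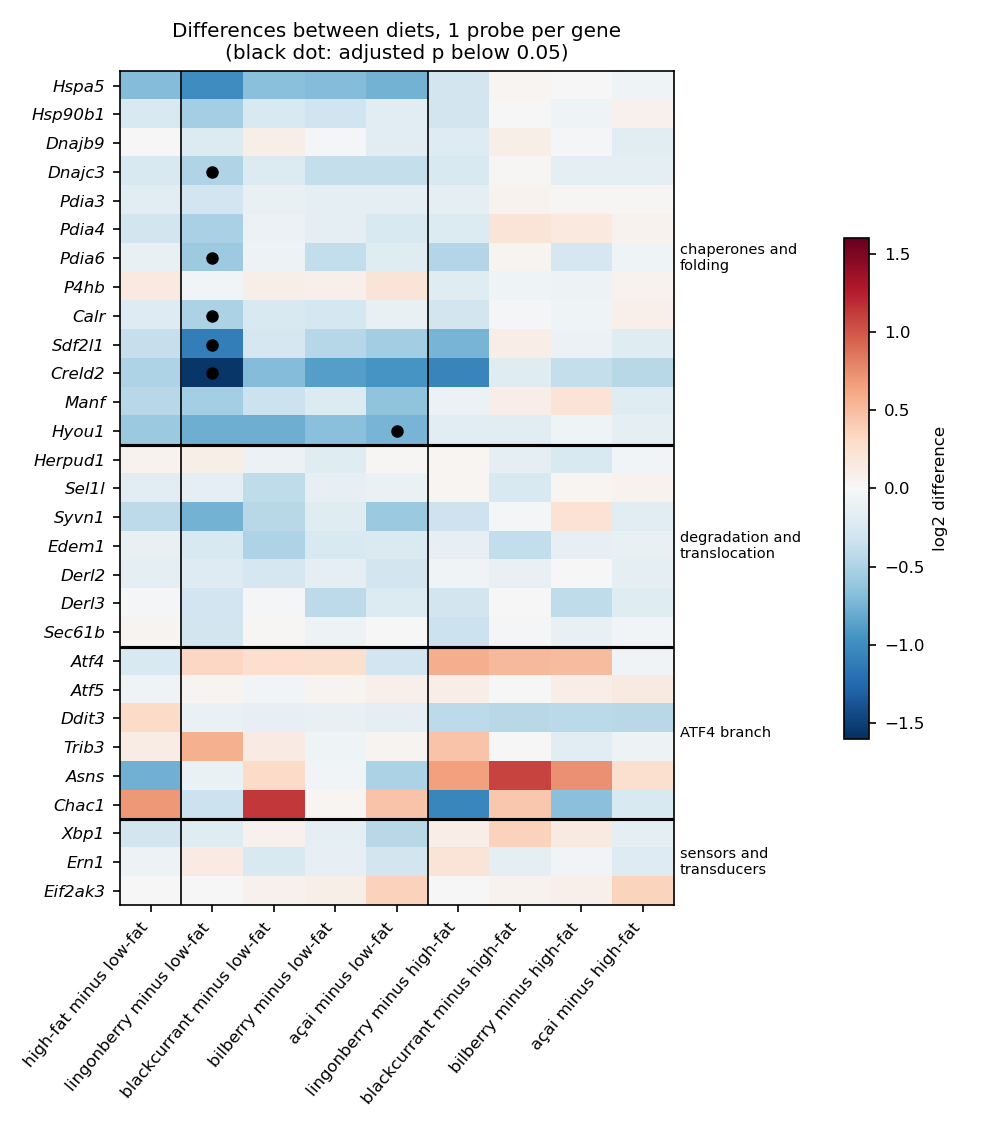
Log2 difference (colour) of the 29 tested genes (rows, grouped by role) for high fat and each berry diet against low fat and for each berry diet against high fat (columns), with a dot where the adjusted p over all probes was below 0.05. The dots stand at Creld2, Sdf2l1, Pdia6, Dnajc3 and Calr in lingonberry minus low-fat and at Hyou1 in açai minus low-fat, and the chaperone rows are mostly negative against low fat.

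Among the genes of degradation and translocation, no brightest probe was called in any pair. Sec61b, a subunit of the channel through which new proteins enter the reticulum, came closest. On its dimmer probe it measured 9.07, 9.12 and 9.33 on high fat, 8.13, 8.72 and 9.16 on lingonberry and 9.03, 9.14 and 9.36 on açai (lowest, median, highest). Most lingonberry livers lay below both other diets. Lingonberry minus high-fat was -0.46 ± 0.13 on this probe (adjusted p = 0.03991) and -0.34 ± 0.10 on the brightest (0.05662), both on 6 of 6 chips. Açai minus lingonberry was 0.45 (0.0331) and 0.30 ± 0.10 (0.08152). The first call was lost without high-fat 2 to 6 or lingonberry 1, 2 or 5 (0.0504 to 0.147) and the second without lingonberry 1, 2 or 5 or açai 1, 3 or 5 (0.0519 to 0.13). With chip as a replicate block the brightest probe was called in lingonberry minus high-fat (0.04079). Neither call of the dimmer probe was kept without the livers with pancreatic transcripts (0.0887 and 0.0959), and the first was not kept with the pancreatic mean as a covariate (0.0611).

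Syvn1 (HRD1), the ubiquitin ligase of the degradation machinery, had its highest mean on low fat (11.21 ± 0.48) and its lowest on lingonberry (10.46 ± 0.31, SD, n = 6). The difference of -0.76 ± 0.27 had an adjusted p of 0.1418 and the same sign on 6 of 6 chips. Edem1, which hands misfolded glycoproteins to degradation, was lowest on blackcurrant, where the livers ran from 4.44 to 6.00 and 5 of 6 detected it, against 5.81 to 6.17 on low fat. Blackcurrant minus low-fat was -0.50 ± 0.16 (adjusted p = 0.09144). Herpud1, a scaffold of the same machinery, Sel1l, the adaptor of Syvn1, and Derl2 and Derl3, membrane proteins of the export channel, differed by 0.27 to 0.42 between their highest and lowest diet means, with adjusted p of at least 0.5027 for any difference among the diets.

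In the ATF4 branch 4 of 6 genes were higher in the mean on lingonberry than on high fat, with a median difference of 0.28, where all 13 chaperones were lower in the mean. Atf4 itself was highest on lingonberry, blackcurrant and bilberry and lowest on high fat and açai. Its brightest probe measured 9.42, 9.78 and 9.93 on high fat, 9.79, 10.27 and 10.63 on lingonberry and 9.36, 9.63 and 10.00 on açai (lowest, median, highest). All but 1 lingonberry liver lay above every high-fat and açai liver. Means were 9.71 ± 0.20 on high fat, 10.30 ± 0.30 on lingonberry, 10.23 ± 0.39 on blackcurrant, 10.22 ± 0.22 on bilberry, 9.66 ± 0.24 on açai and 9.97 ± 0.46 on low fat (SD, n = 6).

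Açai minus lingonberry was -0.64 ± 0.17 for Atf4 (adjusted p = 0.03102), negative on 6 of 6 chips and -0.60 on the dimmer probe (0.02657). Leaving out lingonberry 1 or 2 or açai 1, 2 or 3 ended the call on the brightest probe (0.0718 to 0.0888), and it was not kept without the livers with pancreatic transcripts (-0.71, adjusted p = 0.0662) or in 4 of 6 fits without a chip. Lingonberry minus high-fat was 0.71 ± 0.16 on the dimmer probe, a rise of 1.64-fold (adjusted p = 0.01063), where the livers measured 7.60, 7.84 and 8.09 on high fat and 8.09, 8.60 and 8.88 on lingonberry. These groups touched at a single value. On this probe the rise passed without any single array (up to 0.0393) and without the livers with pancreatic transcripts (0.0493), but not without chip 2 (0.136). The brightest probe gave 0.58 ± 0.17 (adjusted p = 0.07025, or 0.02751 with chip as a replicate block).

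Blackcurrant and bilberry showed differences of like size for Atf4 that did not pass. On the brightest probe they were 0.52 ± 0.17 (adjusted p = 0.2734) and 0.51 ± 0.17 (0.2956) against high fat, and on the dimmer probe 0.53 (0.1963) and 0.60 (0.09597). On açai the mean of 9.66 lay beside that of 9.71 on high fat. Açai minus blackcurrant, -0.58, passed with chip as a replicate block (0.03402, against 0.08302).

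**Figure D3:**
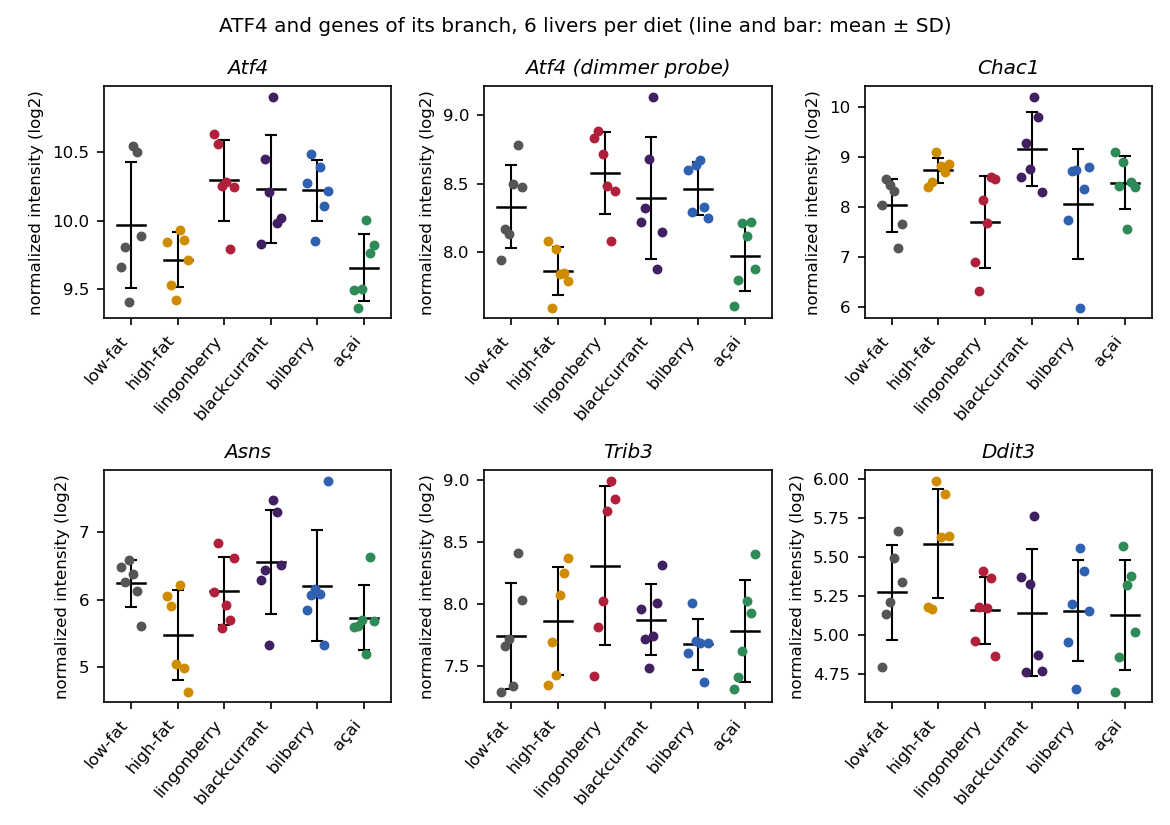
Normalized log2 intensity of Atf4 on its 2 probes and of Chac1, Asns, Trib3 and Ddit3 (vertical axis, a scale of its own per panel) in the 6 livers of each diet (points), with the mean and SD as line and bar. Both Atf4 probes are lowest on high fat and açai, and so is Asns, while Chac1, Trib3 and Ddit3 order the diets in other ways.

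The diet means of genes that ATF4 is known to induce did not all follow those of Atf4. Chac1, an enzyme that degrades glutathione, was highest on blackcurrant (8.31, 9.03 and 10.22) and lowest on lingonberry (6.31, 7.91 and 8.61, lowest, median and highest). Lingonberry minus blackcurrant was -1.46 ± 0.39, 2.76-fold lower, on 5 of 6 chips (adjusted p = 0.05508). Lingonberry minus high-fat was -1.04 ± 0.39 (adjusted p = 0.1735), opposite in sign to Atf4.

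Asns, asparagine synthetase, was lowest on high fat (4.64, 5.48 and 6.21, detected in 5 of 6 livers) and highest on blackcurrant (5.32, 6.47 and 7.47). Blackcurrant minus high-fat was 1.08 ± 0.33 (adjusted p = 0.2025) and high-fat minus low-fat -0.77 ± 0.33 (0.2276), both on 6 of 6 chips. Trib3, a pseudokinase that restrains ATF4 signalling, was highest on lingonberry, 0.57 ± 0.23 above low fat (adjusted p = 0.1994). Ddit3 (CHOP), which promotes death under lasting stress, was highest on high fat at 5.58 ± 0.35 against 5.13 to 5.27 on the other diets, and the differences from the berry diets, of -0.45 to -0.42, had adjusted p of 0.2559 or more. A dimmer Ddit3 probe was detected in 6 high-fat and 0 blackcurrant livers, with no overlap between them (-0.49 ± 0.13, adjusted p = 0.1363). It lay near the detection limit, at a mean of 4.78 and detected on 19 arrays. The share of all probes without overlap in this pair is not given here. On the brightest probe these diets overlapped, at 5.17 to 5.99 on high fat and 4.76 to 5.76 on blackcurrant. Atf5, another factor induced through PERK, differed by 0.14 between its extreme diet means (adjusted p = 0.9626 for any difference).

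Of the sensors and transducers, Xbp1 measured 11.46, 12.28 and 12.46 on low fat, 11.64, 12.34 and 12.50 on blackcurrant and 11.64, 11.72 and 11.88 on açai (lowest, median, highest). Most low-fat and blackcurrant livers lay above every açai liver. Açai minus blackcurrant was -0.51 ± 0.15 (adjusted p = 0.07159, or 0.04595 with chip as a replicate block) and açai minus low-fat -0.44 ± 0.15 (0.07219). Ern1 ranged over diet means from 7.64 to 8.06 (adjusted p = 0.7004 for any difference). Eif2ak3 was near the detection limit, detected in 5 of 6 livers on açai and in 1 or 2 on each other diet, and açai minus low-fat was 0.37 ± 0.14 (adjusted p = 0.1101). Without the livers with pancreatic transcripts that difference was 0.56 (0.0375).

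The members also varied together from liver to liver within a diet. After the mean of each diet was subtracted, all 13 chaperones lay above the diet mean in low-fat 4, high-fat 4, lingonberry 4, blackcurrant 1 and bilberry 5 and 6, and all lay below it in high-fat 6, blackcurrant 6 and bilberry 1 and 2. The median deviation of the chaperones was 0.50 in high-fat 4 and -0.52 in high-fat 6, beside chaperone medians between diet means of -0.25 for high-fat minus low-fat and -0.54 for lingonberry minus low-fat. Pancreatic transcripts were above 6 in 1 of these 10 livers, bilberry 2. Low-fat 4, high-fat 4 and lingonberry 4 shared a chip, and so did high-fat 6 and blackcurrant 6, though with bilberry 6, which deviated upwards. Blackcurrant 1 and bilberry 1 shared a chip and deviated in opposite directions. The part of the chip in these deviations was not tested. In high-fat 4 the tested genes of the other roles lay above their diet means too, and the share of all probes that did is not given here.

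**Figure D4:**
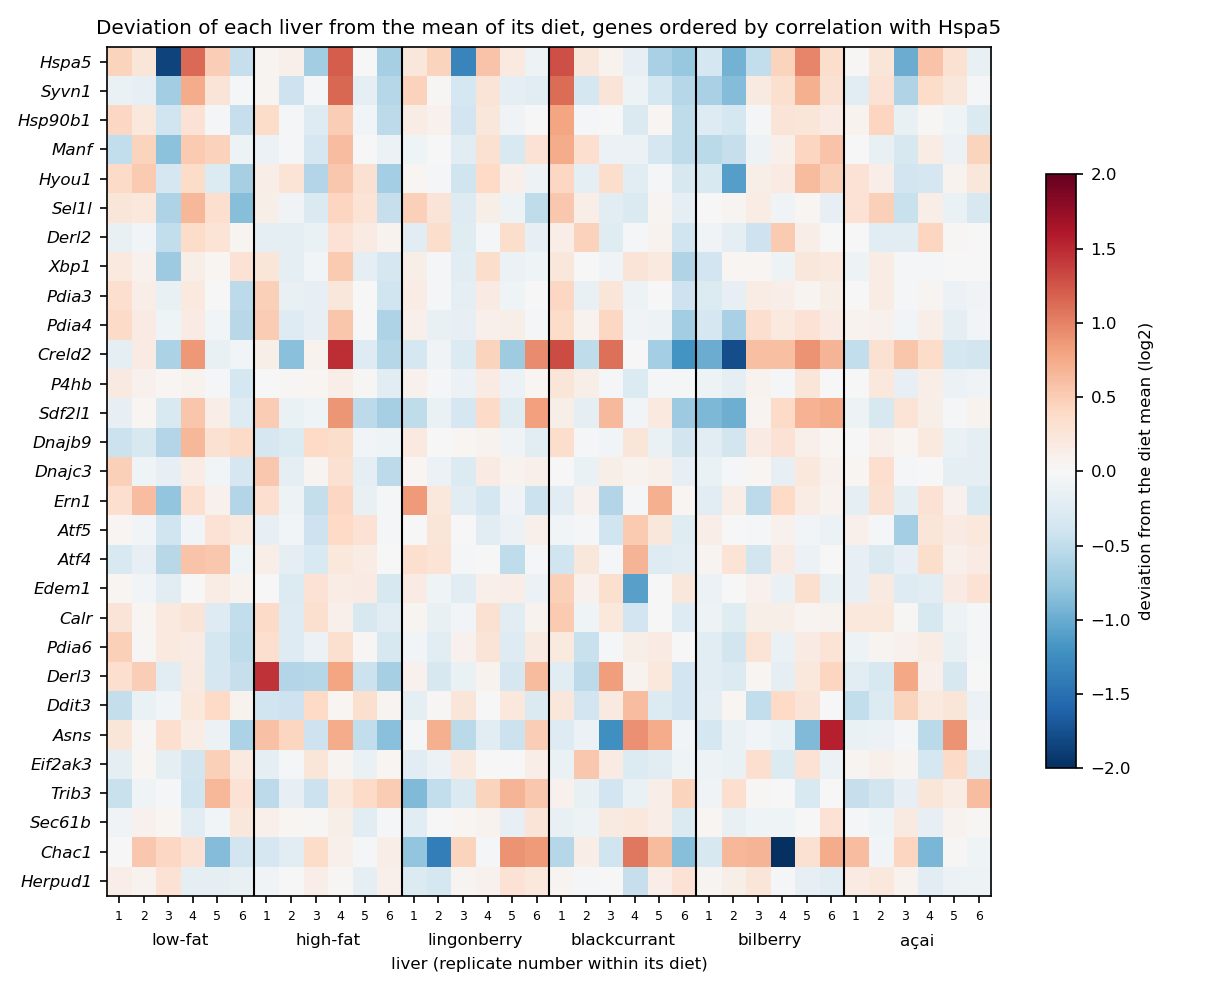
Deviation of each of 36 livers (columns, by diet and replicate number) from the mean of its diet on the log2 scale (colour) for 29 genes (rows, ordered by correlation with Hspa5). The columns of high-fat 4 and blackcurrant 1 are red and those of high-fat 6 and bilberry 2 are blue down most of the upper rows. Fading towards the lower rows, which hold the ATF4 branch and also Calr and Pdia6, follows from the order of the rows. In high-fat 4 the genes of the ATF4 branch lay above the diet mean too, by 0.042 (Ddit3) to 0.739 (Asns).

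Correlation with Hspa5 was computed over the 36 livers with diet means removed, for 28 members. Permutation p-values are two-sided, from 100000 permutations of livers within diets, and limma's adjusted p is over all 17906 other probes. In that limma fit 11 of 28 members were associated with Hspa5, all positively, against 7.77% of all probes. Syvn1 had the highest correlation (r = 0.82, rho = 0.79, permutation p = 1e-05, the smallest possible; limma adjusted p = 5.70e-06). Hsp90b1 (r = 0.79, rho = 0.80), Manf (0.76, 0.71), Hyou1 (0.69, 0.69), Sel1l (0.67, 0.65), Derl2 (0.63, 0.61), Xbp1 (0.62, 0.49), Pdia3 (0.60, 0.67), Pdia4 (0.59, 0.62), Creld2 (0.57, 0.53) and Sdf2l1 (0.51, 0.51) followed, with limma adjusted p from 0.0001001 to 0.02743. The 12 other chaperones had a median r of 0.55 and all were positive. Of the 28 members 17 had an unadjusted permutation p below 0.05, among them Herpud1 with a negative r. The share of all probes below that threshold is not given here, and the permutation took no account of chips.

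Of the 5 chaperones called lower on lingonberry than on low fat, Creld2 and Sdf2l1 were associated with Hspa5 and 3 were not. Pdia6 (r = 0.19, permutation p = 0.362) and Calr (0.24, 0.211) had the lowest r of the chaperones with diet means alone removed, and Dnajc3 had r = 0.43 (0.0204, limma adjusted p = 0.1089). In the ATF4 branch r ran from -0.30 for Chac1 to 0.34 for Atf5, and no gene was called (adjusted p of at least 0.2128). Herpud1 was the most negative member, at r = -0.41 (permutation p = 0.0221, limma adjusted p = 0.1405).

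The livers share chips, and fewer probes were associated with Hspa5 once chip means were removed too. With diet and chip means removed as a replicate block, 0.168% of all probes were called, and 7 of the 28 members: Syvn1 (r = 0.88, adjusted p = 2.86e-06), Creld2 (0.85, 4.83e-06), Manf (0.79, 0.0005569), Hsp90b1 (0.78, 0.002129), Pdia4 (0.72, 0.01076), Sdf2l1 (0.68, 0.01852) and Hyou1 (0.68, 0.02137). Against the values without the block, r was lower for Derl2 (0.38), Xbp1 (0.49) and Ern1 (0.00) and higher for Creld2, Calr (0.50), Edem1 (0.58) and Eif2ak3 (0.38, from -0.04). Without the livers farthest from the median of Hspa5 (low-fat 4 at 10.22 and lingonberry 3 at 6.78) r was 0.82 for Syvn1, 0.77 for Hsp90b1, 0.76 for Manf and 0.47 for Sdf2l1, and 10 members were called. Without all arrays of chip 3 or of chip 4 the count was 6.

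**Figure D5:**
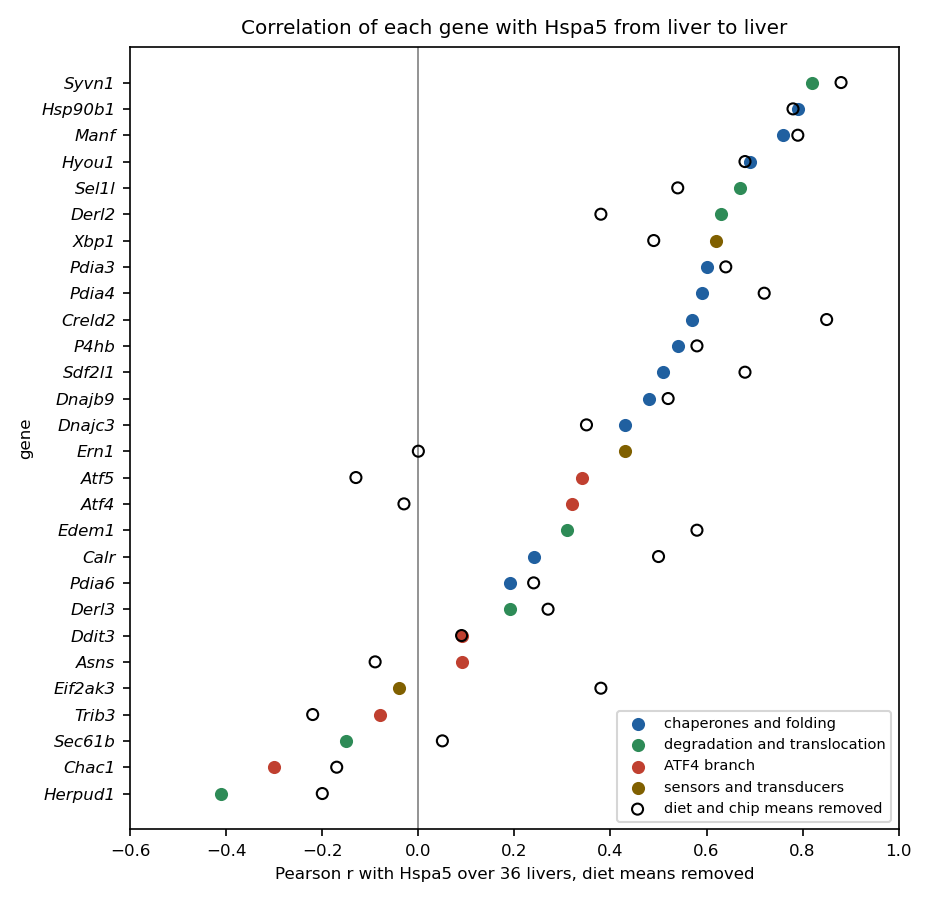
Pearson r of each gene with Hspa5 over 36 livers (horizontal axis) with diet means removed (filled points, coloured by role) and with diet and chip means removed (open circles). Syvn1, Sel1l, Derl2, Xbp1 and 8 chaperones lie from 0.51 to 0.82, and the ATF4 branch lies between -0.30 and 0.34.

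A wider list of 99 genes of the same pathways, of which 79 were tested, was read alongside. Against low fat, lingonberry called 3 of the 79 lower and 1 higher (5.1% of the list, against 3.28% of all probes): Fkbp11, a prolyl isomerase (-0.75, adjusted p = 0.006001), Spcs3, a subunit of the signal peptidase (-0.50, 0.001192), and Sec61a1, the pore of the channel that holds Sec61b (-0.49, 0.02481), were lower, and Vldlr, a lipoprotein receptor known as an ATF4 target, was higher (0.83, 0.007577). Açai against low fat called 7 lower and 2 higher, 11.4% of the list against 6.47% of all probes. The lower ones were Pdia5, a disulfide isomerase (-0.72, 0.001339), Selenos (-0.55, 0.001339) and the signal peptide peptidase H13 (-0.43, 0.03723) of the degradation machinery, and 4 genes of translocation: Ssr2 (-0.37, 0.01519), Sec63 (-0.40, 0.02919), Sec61a1 (-0.42, 0.04178) and Spcs3 (-0.31, 0.04383). The higher ones were Vldlr (0.87, 0.002767) and the alanine aminotransferase Gpt2 (0.57, 0.02486).

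High fat against low fat called 3 of the 79 lower, a share (3.8%) near the 3.31% of all probes: H13 (-0.58, 0.006892), Selenos (-0.42, 0.03021) and Spcs3 (-0.33, 0.04435). Lingonberry against high fat also called 3 (3.8%, against 2.25% of all probes), with H13 higher (0.51, 0.02497) and Gpt2 (-0.63, 0.02575) and Ssr3 (-0.32, 0.0454), of the translocon, lower. Edem2, a mannosidase of the degradation pathway, was lower on bilberry than on low fat (-0.35, 0.03967), and Fkbp11 was lower on lingonberry than on blackcurrant (-0.79, 0.01007). Açai was above lingonberry for Gpt2 (0.70, 0.007252) and below blackcurrant for Pdia5 (-0.72, 0.004213) and Creb3l3, a liver transcription factor cut like ATF6 (-0.43, 0.02012). In bilberry minus low-fat and açai minus lingonberry the called share of the list, 1.3% each, was below that of all probes (1.61% and 3.35%). In lingonberry minus blackcurrant it was 1.3% against 0.983%, and in açai minus blackcurrant 2.5% against 1.76%. The 7 other pairs called none of the 79. Median differences of the 79 genes against low fat were -0.13 on high fat, -0.14 on lingonberry, -0.09 on blackcurrant, -0.13 on bilberry and -0.12 on açai.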

How the data were processed

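Liver RNA of 36 mice was measured on Illumina MouseWG-6 v2.0 beadchips, 1 array per mouse; per the labels' protocols, RNA was extracted with an AllPrep kit, amplified with a TotalPrep-96 kit and labelled with biotin. The authors deposited raw probe intensity values on a linear scale with a detection p-value each, and a table of processed log2 values; software and settings behind either were not given in the sources used here. Entries without a deposited detection p-value, 974 in all, were treated as controls and dropped. Intensities of 45281 probes were background-corrected and quantile normalized by the neqc function (offset 16; limma version 3.58.1) under R 4.3.3, with tables read by the data.table package (version 1.17.8), and came within 0.0501 of the deposited log2 values. Probes were named from the platform annotation and updated through a RefSeq table (GRCm38.p6); 34885 had 1 symbol, 18 several and 10378 were not listed. A gene is represented by its tested probe with the highest mean.

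Differences came from lmFit with a mean per diet over 36 arrays, contrasts and eBayes, two-sided. Confidence intervals are at 95%. The association with Hspa5 was fitted in limma with diet means in the model. Adjustment over the members alone, planned for the correlations, was replaced by adjustment over all probes. The fits were tested on simulated data. Plots were made with matplotlib version 3.10.9 (Python 3.11.15).

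The members, their roles, the gene lists and the tests were chosen with earlier results of these data known. Genes described are the members called in any test and, per role, the 3 with the smallest p for any difference among the diets; Trib3, Ddit3, Hsp90b1, Manf and the rest are named to account for every member, and dimmer probes where they disagree. From the wider list up to 4 called genes per list and comparison with the smallest p were eligible. Replicates are separate animals, 6 per diet by the series design. Replicate numbers are chip numbers, which pair the arrays: deviations from diet means correlated with a median of 0.11 between arrays of a chip (90 pairs) and -0.03 between chips (450 pairs). Alternatives were the chip as a block, other background corrections, filters, variance priors and array weights, the processed values, the pancreatic mean as a covariate, and fits without each array or chip; leaving out the livers with pancreatic transcripts, and the limma fit for Hspa5 with its leave-out fits, were added after seeing the data. Motif letters were searched as exact matches; sequences are RefSeq's.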

Additional observations from a re-analysis of the deposited data

Results flagged for a closer look

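In 96 groups of 6 livers, formed by the 16 described genes over 6 diets, a single liver stood apart from the rest of its diet in 7 by Dixon's criterion, and chance alone marks about 1 in 20 such groups. Asns was high in bilberry 6, at 7.76 with the nearest liver at 6.16, and in açai 5, at 6.63 with the nearest at 5.69. Syvn1 was high in high-fat 4, at 11.94 with the nearest at 10.85, a liver in which all 13 chaperones lay above the mean of their diet. Low values were those of Hspa5 in lingonberry 3 (6.78), Edem1 in blackcurrant 4 (4.44, nearest 5.51), Pdia6 in blackcurrant 2 (7.52, nearest 7.95) and Xbp1 in low-fat 3 (11.46, nearest 12.21). None of these 7 livers was among the 6 with pancreatic transcripts.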

How the results depend on the processing

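None of the 12 called differences of a member probe changed direction under any of 53 alternatives each. Of these, 36 left out a single array, which could hardly turn a sign, so the unchanged directions say little. The calls themselves were lost in 1 of the 53 for Atf4 (dimmer probe, lingonberry minus high-fat) and in up to 33 for Hyou1. The processed values the authors deposited, which lay within 0.0501 of those used, gave the reported count in each of the 16 tests between diets. With reported counts of 2 for any difference among the diets, 5 for lingonberry minus low-fat, 1 each for açai minus low-fat and açai minus lingonberry, 11 for the association with Hspa5 and 0 for each other pair, the counts that moved by more than 1.5 times were these. The chip as a replicate block gave 3 for lingonberry minus high-fat, 4 for açai minus low-fat, 2 each for açai minus blackcurrant and lingonberry minus blackcurrant and 7 for the association, and moved no other count by over 1.5 times. Testing all probes without a filter gave 0 for any difference, 2 for lingonberry minus low-fat and 0 for both açai pairs, with more probes to adjust over; the filter of 18 arrays gave 1 for lingonberry minus blackcurrant. No background correction and an offset of 50 each gave 1 for lingonberry minus high-fat, 1 for blackcurrant minus low-fat and 2 for açai minus lingonberry, and the former 1 for lingonberry minus blackcurrant. Array weights gave 2 for lingonberry minus high-fat, 1 for blackcurrant minus low-fat, 4 for açai minus low-fat and 2 for açai minus lingonberry. A trended robust prior gave 1 for lingonberry minus high-fat and 0 for açai minus low-fat, and the pancreatic covariate 0 for the latter. The arrays of both diets alone gave 1 for lingonberry minus high-fat, 3 for lingonberry minus low-fat, 3 for açai minus low-fat and 1 for açai minus bilberry. Counting every probe gave 2 for lingonberry minus high-fat and 3 for açai minus lingonberry. Without the livers with pancreatic transcripts the counts were 1 for any difference, 1 for high-fat minus low-fat, 1 for blackcurrant minus low-fat, 2 for açai minus low-fat and 0 for açai minus lingonberry. The cause of these moves was not tested, and the shares of all probes called under these alternatives are not given beside them. Without single arrays or chips, counts ran from 0 to 5 for any difference, 0 to 3 for lingonberry minus high-fat, 0 to 7 for lingonberry minus low-fat, 0 to 2 for blackcurrant minus low-fat, 0 to 1 for bilberry minus low-fat, 0 to 3 for açai minus low-fat, 0 to 2 for açai minus lingonberry, 0 to 1 for açai minus blackcurrant, 0 to 3 for lingonberry minus blackcurrant and 6 to 12 for the association, and stayed at 0 for the 7 other pairs. Manf, Derl3 and Eif2ak3 were dim, with 23, 18 and 14 arrays above background.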
